A study of Drosophila melanogaster with 8 samples.

Results

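Heads of adult Drosophila melanogaster carrying neuronal knockdown of FBXO11 were compared between the libraries titled RNA2 (n = 2) and those titled RNA1 (n = 3), with 3 control libraries as the reference level. Library titles alone chose the 5 knockdown libraries, out of 8 in the series, and all genes were examined. The genotype entry is FBXO11 KD1 for the 3 RNA1 libraries and FBXO11 WT for the 3 controls. The RNA2 libraries carry different genotype entries, KD2 for replicate 1 and KD3 for replicate 2, so what they share under the labels is the title. Control titles also carry the words neuronal knockdown, and every library is in batch 1. The driver, the hairpin sequences, the transgene insertion sites, the genetic backgrounds, the sex and the number of heads per library are not stated in the labels. Hairpin, insertion site and background therefore cannot be told apart in any difference between RNA2 and RNA1, and every SE below rests on taking the RNA2 libraries as replicates of 1 group.

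FBXO11 encodes an F-box protein, the subunit that recognises substrates in an SCF ubiquitin ligase built on a cullin scaffold. In flies, RNA interference is commonly driven from a transgene that makes a hairpin RNA, which Dicer-2 cuts into short RNAs that guide Argonaute 2 to matching transcripts. Lines against the same gene can differ in the hairpin, in its insertion site and in the background chromosomes they carry.

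The libraries held 32434805 to 41589222 counted reads each, and 11081 of 17676 genes had enough counts to be tested. Levels are given as CPM, counts scaled by TMM to a common library size, and differences as log2 fold changes of RNA2 against RNA1 ± standard error (SE). A gene was called when its false discovery rate (FDR), from edgeR's quasi-likelihood test adjusted over all genes tested, was under 0.05. The labels do not tie replicates to separate fly pools; the p-values therefore measure the spread between these libraries, which may be technical. Across genes, RNA1 and RNA2 libraries differed about as much between the groups as within them. The median absolute log2 difference over tested genes was 0.139 to 0.235 in the 6 pairs of an RNA1 with an RNA2 library, against 0.144 to 0.217 within RNA1 (3 pairs) and 0.177 between the RNA2 libraries. RNA2 replicate 2 lay nearer to RNA1 replicate 1 (0.152), replicate 2 (0.139) and, by a small margin, replicate 3 (0.175) than to RNA2 replicate 1. RNA2 replicate 1 lay slightly nearer to RNA1 replicate 2 (0.176) and replicate 3 (0.171) than to RNA2 replicate 2, and farther from RNA1 replicate 1 (0.235). No pair of libraries matched within sampling noise, the lowest chi-square per degree of freedom being 23.6. Markers of photoreceptors summed to 52705 to 53191 CPM in RNA1 and to 52892 to 66492 CPM in RNA2, and all 6 photoreceptor and all 6 neuron markers were detected in every library.

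FBXO11 itself (FBgn0037760; BDGP6 3R:9803486-9809368, minus strand) did not pass the test between the knockdowns. It was at 39.7, 42.5 and 37.4 CPM in RNA1, at 44.8 and 52.7 CPM in RNA2, and at 108, 102.9 and 97.4 CPM in control. Both RNA2 libraries were above all RNA1 libraries, and all 5 were below every control. The log2 difference was 0.29 ± 0.09, with an unadjusted p of 0.0125 and an FDR of 0.437 in edgeR.

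Across the genome, 31 of 11081 genes (0.280%) were called, 21 higher in RNA2 (0.190%) and 10 lower (0.0902%). Of these, 22 (0.199%) differed at least 2-fold, 18 of them higher (0.162%) and 4 lower (0.0361%). RNA1 and RNA2 libraries did not overlap for any of the 31 genes, but they also did not overlap for 2318 of all tested genes (20.9%), of which 1253 were above in RNA2 (11.3%) and 1065 below (9.61%). DESeq2 called 147 genes on the same counts, 66 higher and 81 lower, the 31 among them. Limma-voom called 31, of which 26 were shared. Leaving out single libraries changed both edgeR's count and the genes called. Without a control library it called 20 (replicate 1, 19 of them among the 31), 28 (replicate 2, 25 among them) or 19 (replicate 3, 18 among them). Without an RNA1 library it called 31 (replicate 1, 21 among them), 18 (replicate 2, 15 among them) or 18 (replicate 3, all among them). Fits without an RNA2 library leave 1 library in that group, so their counts are not set beside these. A set of 13 genes passed in all 16 alternative analyses. These were CG16826, asRNA:CR45835, asRNA:CR45822, CG45080, whe, lcs, CG3397, aurB, Ipk1, CG4757, kraken, asRNA:CR44155 and CG34212. In bulk tissue, fewer cells of a type and less RNA per cell cannot be told apart.

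**Figure D1:**
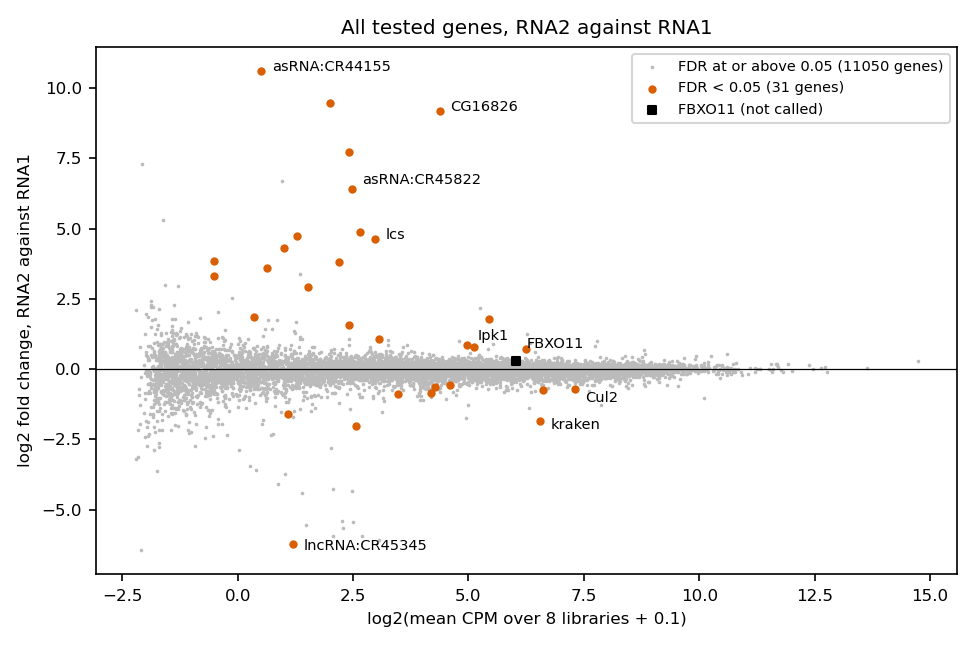
Log2 fold change of RNA2 against RNA1 (y axis) against the log2 of mean CPM + 0.1 over the 8 libraries (x axis, log2 scale), 1 point per tested gene. Orange points are the 31 called genes and the black square is FBXO11, which was not called.

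The largest fold changes were mostly of genes that were near background in control and RNA1 and expressed in RNA2. Of the 21 higher genes, 10 had a mean under 1 CPM in both control and RNA1. CG16826 (FBgn0032505; 2L:13347773-13349020) had the lowest FDR and the highest RNA2 level of these. It was at 86.6 and 79.3 CPM in RNA2, at 0.24, 0.0834 and 0.0911 CPM in RNA1, and at 0.0521, 0.0243 and 0.105 CPM in control. In reads this was 3108 and 2686 counts in RNA2 against 9, 3 and 3 in RNA1 and 2, 1 and 4 in control. RNA2 stood far above both other groups, with a log2 difference of 9.17 ± 0.24 (edgeR FDR 1.27e-07). CG45080 (3R:13318991-13319270) was at 21.6 and 19.6 CPM in RNA2, against 0.0798, 0.167 and 0.0304 CPM in RNA1 and 0, 0 and 0.0263 CPM in control. Its log2 difference was 7.73 ± 0.35 (edgeR FDR 5.08e-06).

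The antisense RNA asRNA:CR44155 (3R:4646433-4648242) was absent from the counts of all 6 control and RNA1 libraries. RNA2 held 158 and 211 counts, 4.4 and 6.23 CPM. With a floor of 3 counts per library it was at least 62.7-fold higher than in RNA1 and at least 69.3-fold higher than in control (edgeR FDR 0.00599 against RNA1). It lies opposite rpk, which had too few counts to be tested. The gene whe (X:21402339-21402772) was at 19.2 and 12 CPM in RNA2, with 1097 counts in both RNA2 libraries together and 2 in the 3 RNA1 libraries. The ratio per total count was 837 (95% interval 231 to 6918, counting error only; edgeR FDR 8.65e-05).

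The kinase gene aurB (2L:10856797-10858094), which encodes Aurora B, a regulator of chromosome segregation in dividing cells, was also in this group. It was at 8.74 and 8 CPM in RNA2, at 0.213, 0.417 and 0.304 CPM in RNA1 and at 0.182, 0.559 and 0.341 CPM in control. Control and RNA1 overlapped and RNA2 stood above both, with a log2 difference from RNA1 of 4.74 ± 0.37 (edgeR FDR 0.000381). CG34212, on 2R, was at 3.65 and 5.43 CPM in RNA2 and at 0.152 to 0.584 CPM in the other 6 libraries (3.59 ± 0.43, edgeR FDR 0.00838).

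The other 4 genes of the group were weaker calls. CG33109 was at 8.24 and 5.28 CPM in RNA2 and at 0.213, 0.5 and 0.304 CPM in RNA1 (log2 difference 4.31 ± 0.57, edgeR FDR 0.0236). CG43679 was at 2.01 and 2.18 CPM in RNA2 against 0.24, 0.278 and 0.0911 CPM in RNA1 (3.33 ± 0.48, edgeR FDR 0.0236). CG30371 was at 1.95 CPM in each RNA2 library against 0.106, 0.167 and 0.121 CPM in RNA1 (3.85 ± 0.59, edgeR FDR 0.037). All of these values set RNA2 apart from RNA1 without overlap. The noncoding lncRNA:CR46254 was at 2.06 and 3.16 CPM against 0.692, 0.89 and 0.547 CPM (1.87 ± 0.30, edgeR FDR 0.0485). In edgeR, CG33109 lost its call without control replicate 3, any RNA1 library or RNA2 replicate 1 (FDR 0.0752 to 0.163). CG43679 and CG30371 lost theirs without any library but control replicate 2 (0.0567 to 0.178 and 0.0671 to 0.221), and lncRNA:CR46254 without any of the 8 (0.0861 to 0.211).

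**Figure D2:**
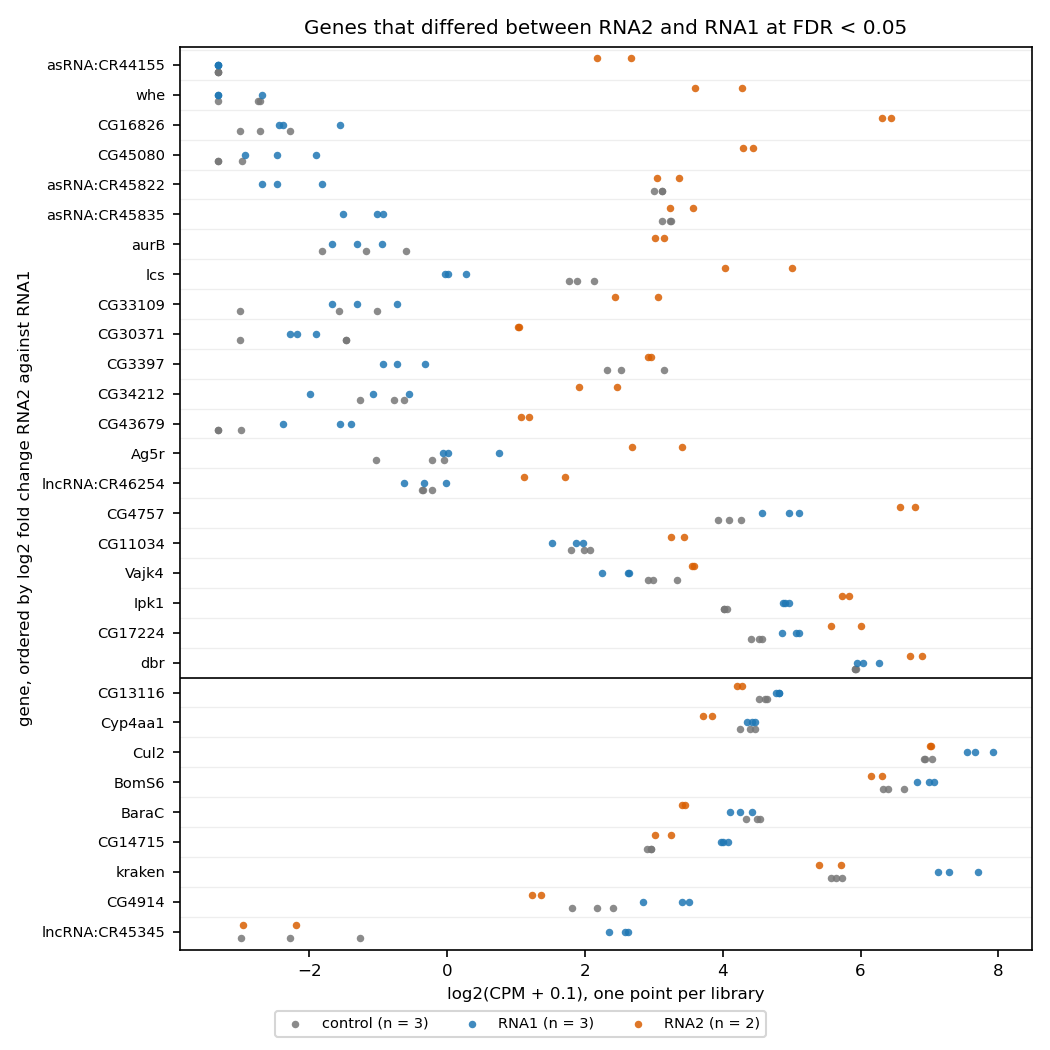
Log2(CPM + 0.1) of 30 called genes (x axis, log2 scale) in every library, 1 point per library, with grey control, blue RNA1 and orange RNA2; genes are ordered by fold change and the line parts the 21 higher from 9 lower. For the genes at the top, control and RNA1 lie together at the left and RNA2 at the right, while for asRNA:CR45835, asRNA:CR45822 and CG3397 control lies with RNA2.

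In 4 other higher genes it was RNA1 that was near background, with a mean under 1 CPM, while control held at least 1 CPM. A pair of antisense RNAs on 3L had this form. The first, asRNA:CR45835 (7361639-7363598), was at 0.426, 0.25 and 0.395 CPM in RNA1, at 11.7 and 9.27 CPM in RNA2 and at 8.55, 9.31 and 9.37 CPM in control. The second, asRNA:CR45822 (7355717-7356598), was at 0.0798, 0.0556 and 0.182 CPM in RNA1, at 10.2 and 8.11 CPM in RNA2 and at 8.55, 7.95 and 8.56 CPM in control. RNA2 and control overlapped for both, and RNA1 stood below. The log2 differences of RNA2 from RNA1 were 4.87 ± 0.21 and 6.42 ± 0.29 (edgeR FDR 5.08e-06 each), and those of RNA1 from control −4.66 ± 0.20 and −6.29 ± 0.28 (6.41e-06 each). RNA2 differed from control by 0.21 ± 0.17 and 0.14 ± 0.20, which did not pass (edgeR FDR 0.543 and 0.756).

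These transcripts lie opposite Sec63, a translocation factor of the endoplasmic reticulum, and CTCF, an insulator protein. Sec63 had a log2 difference of 0.30 ± 0.10 (edgeR FDR 0.418) and CTCF of 0.12 ± 0.09 (0.838), so neither passed. For Sec63, RNA2 lay wholly above RNA1, as for 11.3% of all tested genes. Its means were 114.1 CPM in RNA2, 92.7 CPM in RNA1 and 113.5 CPM in control. For CTCF, RNA2 and RNA1 overlapped, with means of 39 CPM in RNA2, 36 CPM in RNA1 and 34.5 CPM in control. CG3397 (3R:11983098-11984541) was at 0.426, 0.5 and 0.699 CPM in RNA1, at 7.66 and 7.47 CPM in RNA2 and at 4.87, 8.72 and 5.64 CPM in control. Its RNA2 level lay within the control range, with a log2 difference from RNA1 of 3.80 ± 0.29 (edgeR FDR 0.000365). The fourth gene, lcs (X:21396727-21397316), had 3 separate levels. It was at 0.905, 1.11 and 0.881 CPM in RNA1, at 3.57, 3.31 and 4.28 CPM in control and at 31.9 and 16.2 CPM in RNA2. RNA1 fell by 1.94 ± 0.28 on the log2 scale against control (edgeR FDR 0.00387), RNA2 rose by 2.69 ± 0.26 (0.00106), and RNA2 differed from RNA1 by 4.63 ± 0.29 (0.000113).

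The 7 remaining higher genes had a mean of at least 1 CPM in RNA1, and all but Ag5r also in control. Ipk1 (2R:20870791-20879145), the kinase that makes inositol hexakisphosphate, stepped up with little spread. It was at 16.1, 16.1 and 16.6 CPM in control, 29.4, 29.8 and 30.9 CPM in RNA1 and 57 and 53 CPM in RNA2. The log2 difference of RNA2 from RNA1 was 0.87 ± 0.08 (edgeR FDR 0.000785), about the size of the step from control to RNA1, 0.88 ± 0.07 (0.000181). CG4757 (3R:11161207-11163498) followed the same order, with 19.1, 17 and 15.1 CPM in control, 31.1, 34.4 and 23.5 CPM in RNA1 and 111 and 95.1 CPM in RNA2. Its log2 difference of RNA2 from RNA1 was 1.8 ± 0.16 (edgeR FDR 0.0011), and no library of a group overlapped another group.

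Ag5r (X:14784664-14786551), a secreted protein related to the venom allergen antigen 5, was at 0.756, 0.389 and 0.866 CPM in control, 0.905, 0.862 and 1.58 CPM in RNA1 and 10.5 and 6.34 CPM in RNA2 (2.92 ± 0.37, edgeR FDR 0.0107). CG11034 (2L:5805395-5809063) was at 2.77, 3.81 and 3.55 CPM in RNA1 and 10.8 and 9.41 CPM in RNA2 (1.58 ± 0.17, edgeR FDR 0.00504). In both, control overlapped RNA1 and RNA2 stood above. The gene dbr, known for its part in the degradation of the Hedgehog effector Cubitus interruptus, was at 77, 65.5 and 61.4 CPM in RNA1 and 105 and 119 CPM in RNA2 (0.72 ± 0.10, edgeR FDR 0.0236). CG17224 was at 29, 34.3 and 33.3 CPM against 64.1 and 47.3 CPM (0.79 ± 0.13, edgeR FDR 0.0497), and Vajk4 at 6.07, 4.64 and 6.14 CPM against 11.9 and 11.6 CPM (1.06 ± 0.17, edgeR FDR 0.0445). In edgeR, CG11034 lost its call without RNA2 replicate 1 (FDR 0.056), and Ag5r without RNA1 replicate 1 or 2 or RNA2 replicate 1 (0.0571 to 0.101). Calls were also lost by dbr without any library but RNA1 replicate 1 (0.0519 to 0.116), by CG17224 without any but RNA2 replicate 2 (0.102 to 0.351) and by Vajk4 without any but control replicate 2 (0.0769 to 0.281). Ipk1, CG4757, CG11034, dbr, CG17224 and Vajk4 were named after their values were seen, because they complete the higher genes.

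The lower genes were mostly expressed in all groups, and kraken was the clearest. This gene (2L:852768-854539) encodes an alpha/beta hydrolase. It was at 140, 155 and 209 CPM in RNA1, at 52.2 and 41.8 CPM in RNA2 and at 47.3, 49.8 and 52.8 CPM in control. RNA2 overlapped control, RNA1 stood above both, and RNA2 was lower than RNA1 by a log2 difference of −1.84 ± 0.18 (edgeR FDR 0.0046). The noncoding lncRNA:CR45345 (2L:857403-860079), which overlaps mir-375 on the same strand, was at 6.04, 5.89 and 4.98 CPM in RNA1. It was at 0.0278 and 0.118 CPM in RNA2 and at 0.0261, 0.316 and 0.105 CPM in control. RNA1 held 603 counts and RNA2 5, a ratio of RNA1 to RNA2 per total count of 79.1 (95% interval 33.7 to 244, counting error only). Its edgeR FDR was 0.00563, and 0.0675 without RNA2 replicate 1.

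Cul2 (2L:21658735-21663698), the cullin scaffold of another family of ubiquitin ligases, was the only called member of the SCF and cullin list. It was at 243, 202 and 187 CPM in RNA1, at 130 and 128 CPM in RNA2 and at 121, 123 and 131 CPM in control. RNA2 overlapped control and RNA1 was above, with a log2 difference of RNA2 from RNA1 of −0.71 ± 0.11 (edgeR FDR 0.037). CG14715, on 3R, was likewise highest in RNA1, with 15.5, 15.9 and 16.8 CPM in RNA1, 9.41 and 8 CPM in RNA2 and 7.36 to 7.69 CPM in control (−0.89 ± 0.11, edgeR FDR 0.0107). CG4914, on 3L, was at 7.08, 10.5 and 11.3 CPM in RNA1 and 2.26 and 2.48 CPM in RNA2, and control lay between at 3.41, 4.4 and 5.2 CPM (−2.02 ± 0.26, edgeR FDR 0.0107). In edgeR, Cul2 lost its call without any library but RNA1 replicate 1 or 3 (FDR 0.0785 to 0.25). CG14715 lost its call without RNA1 replicate 2 or 3 or RNA2 replicate 2 (0.0536 to 0.0609), and CG4914 without RNA1 replicate 2 or either RNA2 library (0.053 to 0.135).

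BomS6 and BaraC, both in the list of immune-induced peptides, were lower in RNA2. BomS6 (2R:18390353-18390629), a short bomanin made downstream of Toll, was at 128, 112 and 134 CPM in RNA1, 78.9 and 70.9 CPM in RNA2 and 84.6, 98.6 and 80.1 CPM in control (−0.73 ± 0.11, edgeR FDR 0.0365). BaraC (2R:21687903-21688545), a baramicin known from glia rather than as an induced peptide, was at 17.1, 21.5 and 18.9 CPM in RNA1, 10.5 and 10.9 CPM in RNA2 and 23.1, 20 and 22.4 CPM in control (−0.84 ± 0.12, edgeR FDR 0.0236). The control libraries of BomS6 lay between RNA1 and RNA2 and nearer RNA2, whereas those of BaraC overlapped RNA1. Cyp4aa1, a cytochrome P450, was at 21.4, 20.3 and 21.9 CPM in RNA1 and 13 and 14.2 CPM in RNA2 (−0.64 ± 0.10, edgeR FDR 0.0406). CG13116 was at 27.1, 28 and 28.1 CPM against 19.3 and 18.3 CPM (−0.56 ± 0.08, edgeR FDR 0.0338). RNA2 lay below RNA1 without overlap in all 4. Without 1 library, the FDR of lost calls reached 0.211 for BaraC, 0.135 for BomS6, 0.172 for CG13116 and 0.375 for Cyp4aa1. Cyp4aa1 lost its call without any of the 8 libraries, BomS6 without any but control replicate 2, CG13116 without any but RNA1 replicate 1, and BaraC without any but control replicate 2 or RNA1 replicate 1.

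With control as the reference, the 31 genes included differences of either knockdown. In the same edgeR model, 15 of the 31 were called against control in RNA2 only, 10 in RNA1 only and 5 in both. The genes called in both were lcs, Ipk1, CG4757, CG43679 and CG17224. Among all 11081 tested genes, 67 were called against control in RNA2 only, 785 in RNA1 only and 352 in both. The control mean lay nearer RNA1 for 17 of the 21 higher genes and nearer RNA2 for 6 of the 10 lower genes. Among all tested genes it lay nearer RNA1 for 5157 and nearer RNA2 for 5924. For scale, RNA1 against control (3 against 3 libraries) called 1137 genes (10.3%) and RNA2 against control (2 against 3 libraries) 419 (3.78%). These contrasts share libraries with the comparison of RNA2 and RNA1, so they are given as reference levels and not as separate evidence.

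**Figure D3:**
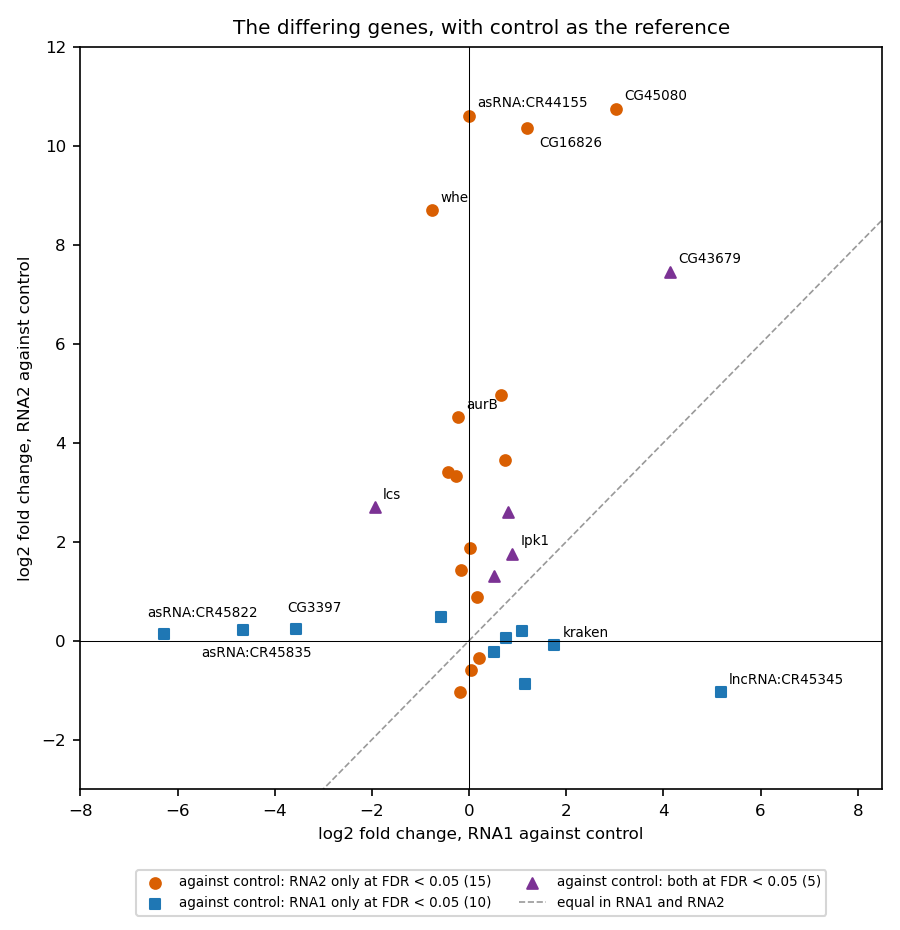
Log2 fold change against control of 30 called genes in RNA2 (y axis) and RNA1 (x axis), with symbols for the edgeR call against control and a dashed line where RNA1 and RNA2 are equal. Points on the vertical line at 0 are near the control level in RNA1, among them aurB and asRNA:CR44155, and points on the horizontal line at 0 are near the control level in RNA2, among them asRNA:CR45822, CG3397 and kraken; fitted values of genes at 0 counts depend on the prior count.

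The called genes were spread over the arms. They numbered 10 of 1970 tested genes on 2L (0.508%), 8 of 2256 on 2R (0.355%), 4 of 2156 on 3L (0.186%), 6 of 2721 on 3R (0.221%), 3 of 1800 on X (0.167%) and 0 of 99 on chromosome 4. The median log2 difference lay between −0.0171 and 0.000686 on the 5 large arms and was −0.0726 on chromosome 4. Of the 31, 8 had another called gene starting within 20 kb, in 4 pairs, and in each pair the members differed in the same direction. The pairs were whe with lcs (5456 bp apart), asRNA:CR45822 with asRNA:CR45835 (7881 bp), kraken with lncRNA:CR45345 (4635 bp) and dbr with lncRNA:CR46254 (11665 bp). As a measure of gene density only, 10499 of all tested genes have another tested gene, called or not, starting within that distance. That figure counts neighbours of any kind, so it is no background rate for the 8.

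Uncalled genes near the called ones held more low p-values than the genome. Of 163 tested, uncalled genes starting within 20 kb of a called gene, 38 had an unadjusted edgeR p under 0.05 (23.3%), against 849 of all 11081 (7.66%); this difference was not tested. The kraken locus was the fullest. CG13949, between kraken and lncRNA:CR45345, was at 7.29, 7.12 and 5.86 CPM in RNA1 and at 0.195 and 0.0885 CPM in RNA2, with 0.182, 0.802 and 0.0525 CPM in control (log2 difference −5.53, edgeR FDR 0.0799). CG13950 had −1.72 (edgeR FDR 0.112), CG4291 −0.45 (0.117) and drongo −0.41 (0.322). All 4 of these genes had negative values beside the 2 called ones, and none passed. Near BomS6 lay 9 other tested bomanins, 7 with negative and 2 with positive values, and none passed. BomT2 had −0.75 (edgeR FDR 0.0776), BomS5 −0.63 (0.334), BomS2 −0.51 (0.23) and BomS3 −0.44 (0.639), while BomT1 had 0.44 (0.79) and BomBc1 0.31 (0.812). The bomanins are a family of similar short genes, so reads may be shared between them. Near CG43679, CG43680 had 0 CPM in all RNA1 libraries and 0.473 and 0.59 CPM in RNA2 (edgeR FDR 0.0799). Near CG16826 and CG45080 no other tested gene within 20 kb was called.

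**Figure D4:**
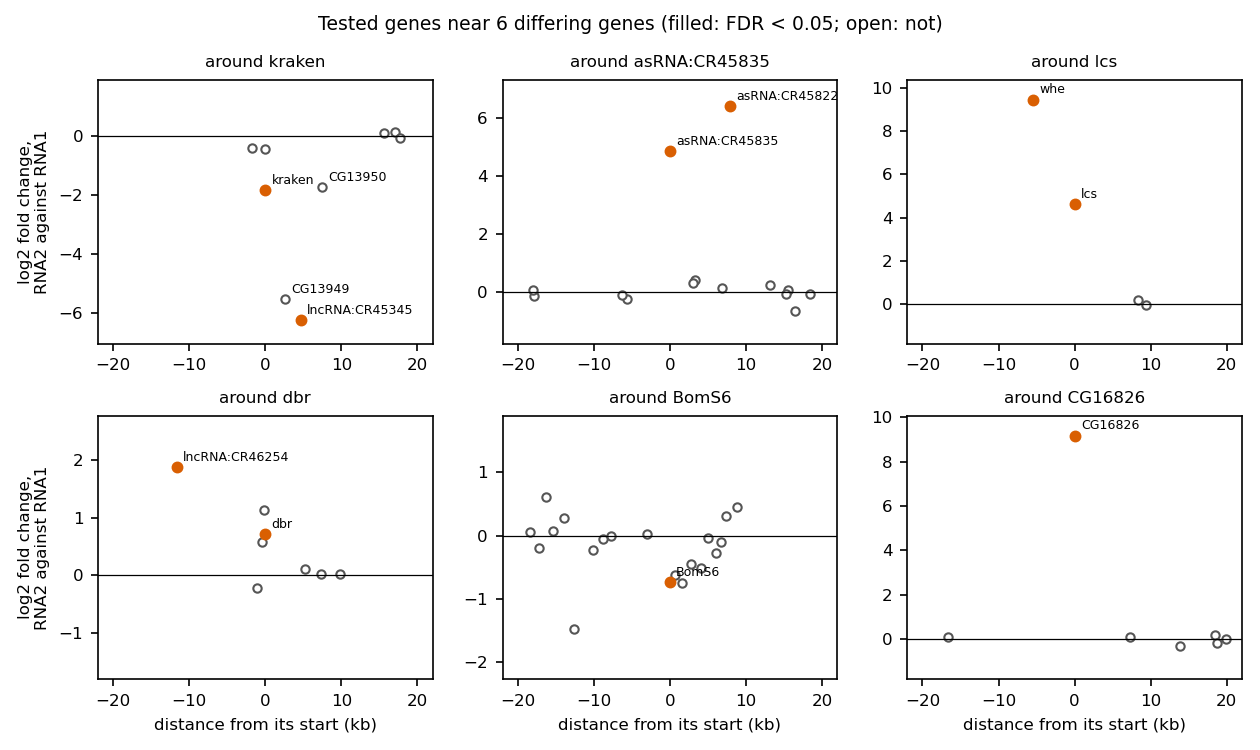
Log2 fold change of RNA2 against RNA1 (y axis) for tested genes starting within 20 kb of 6 called genes (x axis, distance from that gene's start in kb), filled where FDR was under 0.05 and open otherwise. CG13949 and CG13950 lie beside kraken and lncRNA:CR45345 on the negative side, while the neighbours of CG16826 lie near 0.

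Overlapping transcripts limit some of these values, since the strand setting of the authors' counting is not stated. A gene on the opposite strand overlaps 8 of the 31, and a gene on the same strand overlaps 2. The opposite partners that could be tested did not pass. Strn-Mlck, opposite Cyp4aa1, had a log2 difference of 0.19 ± 0.09 (edgeR FDR 0.696), and CG18476, opposite CG14715, 0.07 ± 0.11 (0.923).

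Over 29 gene lists with 874 distinct tested members, 4 members (0.458%) were called, in 3 lists, beside 0.280% of all tested genes. They were Cul2 of 24 tested SCF and cullin genes, BaraC and BomS6 of 36 immune-induced peptides, and Cyp4aa1 of 73 cytochrome P450 genes. The median log2 difference lay within 0.15 of 0 in 26 lists, beside −0.00792 over all tested genes. The remaining lists were the 26S proteasome, digestive enzymes and cuticle proteins, given below. Immune-induced peptides had a median of −0.0711. At an unadjusted edgeR p under 0.05, 7 members were lower and 0 higher, beside 418 lower (3.77%) and 431 higher (3.89%) of all tested genes. Among the lower members were BomS6, BomT2, BomS2, BomS5 and BomS3, bomanins whose reads may be shared. RNA2 lay wholly above RNA1 for 4 of the 36 and wholly below for 7, beside 11.3% and 9.61% of all tested genes. The list's median difference from the RNA1 mean was 0.1 in RNA2 replicate 1 and −0.226 in replicate 2. P450 genes had a median of −0.115 with 11 lower and 4 higher at the unadjusted p. The 57 tested glutathione and UDP-glycosyl transferases had 0 calls and, at the unadjusted p, 8 higher and 2 lower. The RNA interference and microRNA genes gave 0 calls of 17 and, at the unadjusted p, 1 higher and 3 lower. AGO2 was at −0.01 ± 0.08 (edgeR FDR 0.99), Dcr-2 at −0.12 ± 0.11 (0.85) and its partner r2d2 at −0.20 ± 0.08 (0.626). The white gene w, a common marker of fly transgenes, was at 228, 262 and 245 CPM in RNA1 and 256 and 216 CPM in RNA2, against 59.3, 63.3 and 66.5 CPM in control. Between RNA2 and RNA1 w differed by −0.05 ± 0.10 (edgeR FDR 0.939). Sex-biased genes gave 0 calls of 16, lncRNA:roX1 being at 0.06 ± 0.13 (edgeR FDR 0.956).

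The 26S proteasome, which degrades ubiquitinated proteins, had the most uniform sign. All 31 tested subunits had negative log2 differences, with a median of −0.338 and a range of −0.451 to −0.229, and 0 were called. Taken by library as a median difference from the RNA1 mean, RNA1 stood at 0.158, −0.335 and 0.166, RNA2 replicate 1 at −0.789 and RNA2 replicate 2 at 0.0403. The negative median thus came with RNA2 replicate 1, and replicate 2 lay inside the RNA1 range. Phototransduction and chromophore genes had positive values in 29 of 36, beside 5342 of all 11081 tested genes. The list had a median of 0.111 and 0 calls. By library the list stood at −0.0134, 0.000957 and 0.00703 in RNA1, at 0.139 in RNA2 replicate 1 and at 0.0336 in RNA2 replicate 2. RNA2 lay wholly above RNA1 for 11 of the 36 and wholly below for 1, beside 11.3% and 9.61% of all tested genes. In that list laza, a lipid phosphatase of photoreceptors, had 0.32 ± 0.09 (edgeR FDR 0.322). Rhodopsin ninaE took 3.54% of the counts of RNA2 replicate 1 and 2.44% to 2.82% in the other 7 libraries; its part in these values was not tested. Digestive enzymes had a median of −0.609 with 0 of 17 called, and the libraries stood at −0.757, −0.651 and 2.05 in RNA1 and at −0.0787 and −1.92 in RNA2. RNA1 replicate 3 was thus the highest, and RNA2 lay on both sides of the other RNA1 libraries. Cuticle proteins had a median of −0.2245, with 36 of 53 negative and 0 called. By library they stood at −0.166, 0.00571 and 0.197 in RNA1, at −0.313 in RNA2 replicate 1 and at 0.106 in RNA2 replicate 2.

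**Figure D5:**
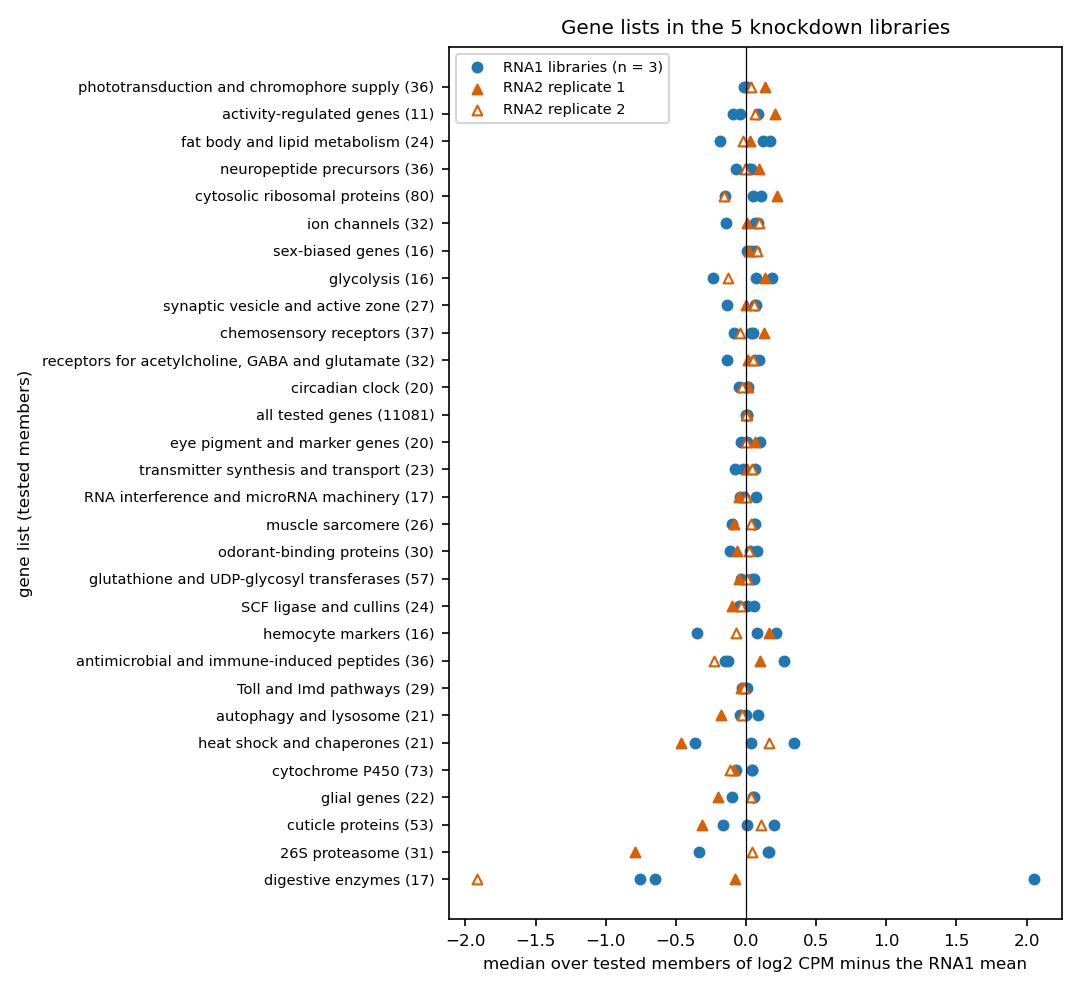
Median over each list's tested members of log2 CPM minus the RNA1 mean (x axis, log2 scale) for each of the 5 knockdown libraries, with lists on the y axis and the number of tested members in brackets. RNA2 replicate 1 (filled triangle) lies apart at −0.789 for the 26S proteasome while replicate 2 (open triangle) is at 0.0403, and for digestive enzymes RNA1 replicate 3 is at 2.05.

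Summed hemocyte, gut, fat body and ovary markers overlapped between RNA1 and RNA2. Hemocyte markers summed to 221 to 433 CPM in RNA1 and 270 to 349 CPM in RNA2, gut markers to 30.8 to 126 CPM and 51 to 99.6 CPM, and fat body markers to 2779 to 4219 CPM and 3188 to 4416 CPM. Ovary and eggshell markers, 5 of 6 matched, summed to 0.452 to 0.917 CPM in RNA1 and 0.251 to 1.48 CPM in RNA2, below the 4.93 to 9.14 CPM of control. Testis and accessory gland markers summed to 0.152 to 0.417 CPM in RNA1 and 0.059 to 0.111 CPM in RNA2 without overlap, at trace levels, and Acp26Aa among them was at 0 in every library.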

How the data were processed

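Head RNA went into a stranded mRNA library kit, per the labels' protocols. The authors deposited raw read counts for each gene as whole numbers. The submitters' processing notes name bcl2fastq 2.17, cutadapt 1.18, FastQC 0.11.8, STAR 2.6.1, SAMtools 1.8, DESeq2 1.24.0 and genome build BDGP6, without their order or settings. How reads were assigned to genes, on which strand and with which annotation release is not given in the sources used here. Symbols and coordinates come from an Ensembl BDGP6 annotation, whose release may differ. A symbol was found for 17549 of 17676 genes, leaving 127 without.

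The test was edgeR 4.0.16 in R 4.3.3, on genes kept by filterByExpr (minimum count 10, minimum total 15), with TMM scaling and a robust quasi-likelihood model of group means over all 8 libraries. The tests were two-sided F tests of RNA2 minus RNA1, with Benjamini-Hochberg FDR over all tested genes. The common biological coefficient of variation was 0.143. Each SE is the size of the log2 fold change over the root of its F statistic. A count of 0 was bounded by 3 counts per library. Where a group averaged 3 counts or fewer per library, pooled counts per total are given as a ratio with an exact (Clopper-Pearson) 95% interval. Reads carry no molecular identifiers, so intervals and floors cover counting error only. Named genes were FBXO11, the called genes with non-overlapping libraries and at least 1 CPM in the higher group (up to 15 by fold change and 5 by p in each direction), and called list members. The script was tested on simulated data. The alternatives were other scalings and filters, DESeq2 1.42.0, limma-voom (limma 3.58.1), a fit to the 5 knockdown libraries, a replicate block, and leaving out each library. The comparison and the 29 gene lists (1085 entries, 1072 matched and 13 not) were chosen with earlier results of these data known. The values of 1 called gene are not reported here.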

Additional observations from a re-analysis of the deposited data

How the results depend on the processing

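No alternative reversed the direction of any of the 31 called genes or of FBXO11, and 13 genes passed in all 16. DESeq2 called 147 genes (66 higher, 81 lower; 56 at least 2-fold) with 41 on 2L, 52 on 2R, 23 on 3L, 21 on 3R, 1 on chromosome 4, 8 on X and 32 near another called gene. With no filter on low counts, 18 genes were lower and 13 had a called neighbour. In the 5 knockdown libraries alone, 5 were lower, with 6 on 2L and 4 on 2R. Whether the replicate numbers pair the libraries could not be decided. Deviations were taken from group means, so those of the 2 RNA2 libraries mirror each other. Correlations of deviations were −0.231 and −0.164 between same-numbered RNA1 and RNA2 libraries. Between same-numbered control and RNA2 libraries they were 0.0375 and 0.164, and between control and RNA1 −0.0376, −0.082 and −0.0276. Between control and RNA1, and between RNA1 and RNA2, no library correlated best with its own number. Control replicates 1 and 2 each correlated best, among RNA2 libraries, with the one of their own number. With a replicate block 17 genes were called, 3 of them lower, with 5 on 2L and 2 on 2R. Leaving out each library gave 17 to 40 calls, 14 to 25 higher, 2 to 15 lower and 15 to 30 at least 2-fold. By arm the ranges were 3 to 14 on 2L, 2 to 9 on 2R, 2 to 7 on 3L, 4 to 8 on 3R, 0 to 2 on chromosome 4 and 2 to 5 on X, with 4 to 10 having a called neighbour. FBXO11's log2 difference was 0.16 to 0.40. Without an RNA2 library the other one is assumed to vary like the other groups. The cause of these changes was not tested.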

Other observations

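Some genes stood far apart between the RNA2 libraries, and those given here were chosen after their values were seen. They carry different genotype entries, KD2 and KD3, so this is 1 library against 1, without a test. Of 8256 genes with a mean of at least 5 CPM in RNA2, 167 were at least 2-fold apart. The same count was not made for pairs within RNA1 or control. TotM, a Turandot stress protein, was at 20.1 CPM in RNA2 replicate 1 and 1.09 CPM in replicate 2, and its relative TotC at 27 and 3.95 CPM. Both also varied within RNA1, which has a single genotype entry: TotM was at 19.2, 4.67 and 5.92 CPM and TotC at 107.7, 33.4 and 14.7 CPM there. Lsp2, a larval storage protein of the fat body, was at 720 and 214 CPM, and Pepck2, of gluconeogenesis, at 137 and 60.1 CPM. CG13947 was at 13.2 and 1.03 CPM, and at most 0.292 CPM in the other 6 libraries. In the other direction, replicate 1 was low for frm (5.57 and 68.6 CPM), the chitinase gene Cht5 (40.9 and 273 CPM), the cuticle gene Cpr64Aa (2.65 and 15.8 CPM) and the proteasome relative Rpt6R (2.28 and 14.3 CPM). Some of these also varied inside the other groups. From the lowest to the highest RNA1 library, the log2 range was 1.52 for frm, 1.00 for Cht5, 1.02 for Rpt6R and 1.01 for Lsp2. It was 0.383 for Cpr64Aa and 0.15 for Pepck2. In control, frm was at 21.7, 86.1 and 94 CPM and Cht5 at 263, 594 and 340 CPM.

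Of 22 uncalled genes at least 8-fold apart, 4 had both RNA2 libraries above RNA1, 7 had both below and 11 overlapped. The overlapping genes were highest in RNA1 replicate 3 (8 genes) or RNA1 replicate 1 (3 genes). In RNA1 replicate 3 the gut protease Jon65Aiv was at 64.2 CPM and the lysozyme gene LysD at 37 CPM, against at most 0.639 CPM in the other 4 knockdown libraries. In RNA1 replicate 1 the antennal genes Obp83a, at 29.3 CPM, and a10, at 18.4 CPM, were high, against at most 0.585 CPM in the other 4. Of the 7 with RNA2 below, CG9029 was at 0.0557 and 0.059 CPM in RNA2 and 1.06, 0.334 and 0.547 CPM in RNA1 (edgeR FDR 0.117). Of the 4 with RNA2 above, CG30091 was at 10.4 and 6.61 CPM in RNA2 and 0.399, 1.61 and 0.395 CPM in RNA1 (log2 difference 3.39, edgeR FDR 0.0799).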
